A study of Mus musculus with 4 samples.

Results

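The microRNAs described here are the miR-30 family, read by the assays mmu-miR-30a, mmu-miR-30b, mmu-miR-30c, mmu-miR-30d and mmu-miR-30e. They were chosen by assay name, and these 5 are all the miR-30 assays among the 375 microRNA assays read in every sample. RNA came from whole C57BL/6 mouse embryos at E18.5, just before birth, as 2 wild-type samples and 2 samples labelled as a knockout of ER-alpha, a nuclear receptor for estrogen and the product of Esr1. TaqMan real-time PCR gave a threshold cycle (Ct) per well; the earlier the Ct, the more RNA was present, and 1 cycle stands for about 1 log2 unit. The labels used here do not give the knockout allele, the sex of the embryos or the number of embryos in a sample. The p-values therefore measure only the spread between these samples, which may be partly technical. In a whole embryo, fewer cells of a type and less RNA per cell cannot be told apart.

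A microRNA is cut from a hairpin RNA and guides Argonaute proteins to messenger RNAs, mainly by pairing of its seed, the bases 2 to 8 from the 5′ end. MicroRNAs with the same seed are grouped as a family because they can pair with overlapping sets of targets. The miR-30 family is expressed in many tissues, including kidney, lung, heart and skeletal muscle, and is known for acting on transcripts of differentiation, epithelial-mesenchymal transition, autophagy and connective tissue growth. Its members come from pairs of neighbouring hairpin genes. In RefSeq's gene table Mir30a and Mir30c-2 lie on chromosome 1, Mir30e and Mir30c-1 on chromosome 4 inside the span of Nfyc (which encodes a subunit of the transcription factor NF-Y), and Mir30b and Mir30d on chromosome 15.

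The mature sequences show what the members share and where they part. RefSeq's table (build GRCm38.p6) held the 5p sequence of 3 members, and of mmu-miR-384-5p, the other assay on the panel whose matched mature sequence carries the miR-30 seed. The assay names of the miR-30 members give no arm, and the 5p arm, the usual meaning of a name without one, was assumed. Capitals mark the seed, and each sequence is written 5′ to 3′.
miR-30a-5p: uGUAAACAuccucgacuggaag
miR-30c-5p: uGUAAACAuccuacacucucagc
miR-30e-5p: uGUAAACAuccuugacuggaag
miR-384-5p: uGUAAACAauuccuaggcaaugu
The sequence of miR-30a-5p lies at chr1:23272274-23272295 on the plus strand and that of miR-30e-5p at chr4:120772660-120772681 on the minus strand. The sequence of miR-30c-5p lies at both chr1:23291714-23291736 (plus strand) and chr4:120769584-120769606 (minus strand), so 1 assay reads the products of 2 genes. The sequence of miR-384-5p lies at chrX:105344332-105344354 on the minus strand. All 4 sequences have the seed GUAAACA.

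Outside the seed, miR-30a and miR-30e differ at 1 of 22 positions, the substitution C13U, counted from the 5′ end with the base of miR-30a first. Both have their first 12 bases in common with miR-30c and differ from it at 5 of the 22 positions compared. With miR-384-5p they have the first 8 bases in common, and miR-30a is identical to it at 12 of 22 positions, without gaps. How far assays for sequences this close read each other's targets was not tested, so values of miR-30a and miR-30e are uncertain in that respect. No sequence was held for miR-30b and miR-30d, so they were not compared, and their values may be uncertain in the same way.

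All 5 members amplified well within the detection limit used, a Ct of 35. In the 4 samples 254 to 290 microRNAs were detected, 229 of them in every sample, and these 229 were compared. MicroRNAs typical of tissues in an embryo were then looked at. Their detection cannot identify the tissue by itself, since 229 of the 375 microRNA assays were detected in every sample. All assays on the panel for microRNAs of striated muscle (4), liver (1), endothelium (2), epithelium (7), blood cells (7), kidney (4) and mesenchyme (4) were detected in every sample, and 4 of 5 neural assays were, with mmu-miR-219 as the exception. Wild-type replicate 1 stood apart. Once a constant of 0.273 cycles shared by its wells other than U6 is taken off, 90.0% of its amplified wells lie within 0.1 cycle of a whole cycle, against 21.0% to 26.5% in the other samples, and this holds for all 5 miR-30 wells. The median of its tested Ct values was 29.2, against 27.4 to 28.2 in the others. Each microRNA has 1 well per sample. The 4 U6 wells of a sample had an SD of 0.52 cycles in wild-type replicate 1 and of 0.062 to 0.18 in the other samples.

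miR-30c had the earliest Ct of the family and miR-30d the latest, by only 0.006 cycles after miR-30a in wild-type replicate 1. With that near tie, the order miR-30c, miR-30b, miR-30e, miR-30a, miR-30d held in each of the 4 samples. Assays differ in efficiency to an unknown degree, so this is an order of readings. Below, a level is the number of log2 units by which a microRNA stands above the median of the 229 microRNAs in its sample.

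miR-30c, reported to act on connective tissue growth factor in the heart, came up at a Ct of 25.2 and 23.2 in wild-type replicates 1 and 2, and of 23.6 and 23.3 in ER-alpha knockout replicates 1 and 2. As levels these were 4.0, 4.18, 4.62 and 4.50 in the same order, ranks 18 to 21 of 229. Both knockout levels lay above both wild-type levels, by at least 0.31 log2 units. The group means were 4.09 ± 0.13 in wild-type and 4.56 ± 0.092 in knockout embryos (SD, n = 2 each).

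miR-30b came next, with Ct values of 26.2 and 23.7 in wild-type and 24.1 and 23.9 in knockout embryos. Wild-type levels were 3.0 and 3.70, and knockout levels 4.09 and 3.92. Wild-type replicate 1 was the lowest, and the groups did not overlap. In the 3 other samples miR-30b held rank 25, and in wild-type replicate 1 it held rank 39.

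miR-30e, whose hairpin lies with that of miR-30c-1 inside Nfyc, had Ct values of 27.2 and 24.2 in wild-type and 24.6 and 24.6 in knockout embryos. Wild-type levels were 2.00 and 3.12, and knockout levels 3.58 and 3.26. This was the widest spread of the family within a genotype, an SD of 0.79 in wild-type against 0.23 in knockout samples (n = 2 each). The groups did not overlap, but wild-type replicate 2 was 0.14 log2 units from the nearer knockout sample and 1.12 from the other wild-type sample.

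miR-30a, the sequence that differs from miR-30e at 1 position, had Ct values of 28.2 and 25.7 in wild-type and 26.0 and 26.2 in knockout embryos. Wild-type levels were 0.99 and 1.63, and knockout levels 2.15 and 1.62. Wild-type replicate 2 and knockout replicate 2 were level, so the groups overlapped.

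miR-30d, the hairpin neighbour of miR-30b, had Ct values of 28.2 and 26.7 in wild-type and 27.0 and 26.9 in knockout embryos. Its levels of 0.99 and 0.67 in wild-type and 1.20 and 0.97 in knockout samples overlapped as well. Here wild-type replicate 2 was the lowest sample, unlike in the other members.

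**Figure D1:**
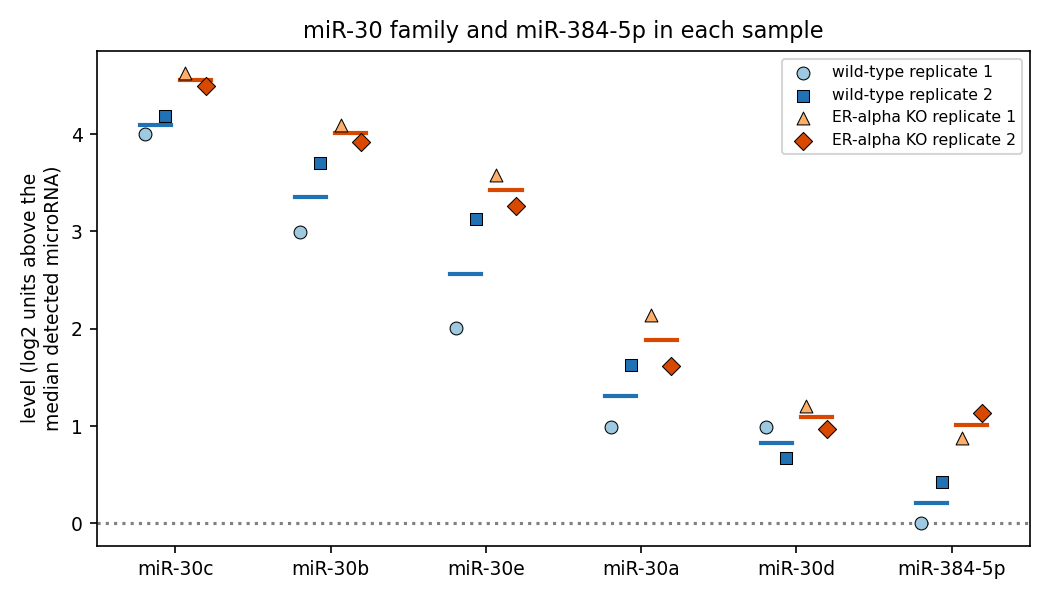
The vertical axis gives the level in log2 units above the median detected microRNA (dotted line at 0) for the 5 miR-30 assays and miR-384-5p, with 1 symbol per sample and a bar at each group mean (n = 2). Levels descend from miR-30c (4.0 to 4.62) to miR-30d (0.67 to 1.20), and wild-type replicate 1 is the lowest sample for each assay but miR-30d.

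The proportions within the family were close in 3 of the samples. If all assays doubled their product in each cycle, miR-30c would make up 40.7% to 43.1% of the summed signal of the 5 members in wild-type replicate 2 and both knockout samples. On the same assumption miR-30b would make up 28.3% to 29.2%, miR-30e 18.4% to 19.8%, miR-30a 5.87% to 7.32% and miR-30d 3.57% to 3.81%. In wild-type replicate 1 the shares were 50.1% for miR-30c, 24.9% for miR-30b, 12.5% for miR-30e and 6.22% and 6.20% for miR-30a and miR-30d. All 5 miR-30 wells of that sample read near whole cycles, so its shares follow near whole-cycle steps and may not give its true proportions. Shares within a sample do not depend on how the sample is centred. The 5 members together held 1.72% of the summed signal of the 229 microRNAs in wild-type replicate 1 and 2.89% in replicate 2, and 2.38% and 2.67% in knockout replicates 1 and 2.

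**Figure D2:**
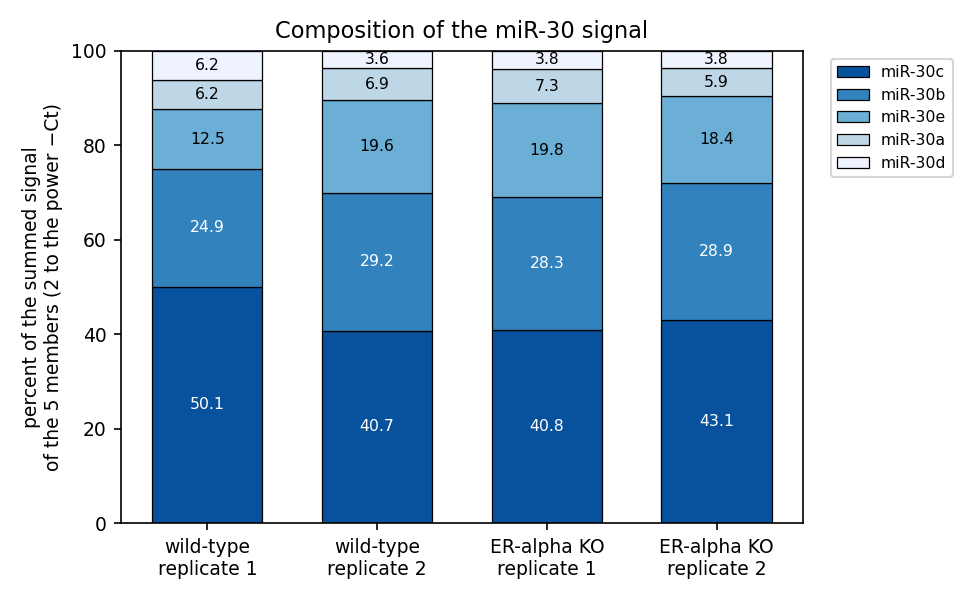
Stacked bars give the percent of the summed miR-30 signal (2 to the power of minus Ct, equal assay efficiency assumed) held by each member in each sample. The bars of wild-type replicate 2 and both knockout samples are alike, with miR-30c at 40.7% to 43.1%. In wild-type replicate 1, whose miR-30 wells read near whole cycles, miR-30c is at 50.1%.

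The spacing between members, as the difference of their Ct values within a sample, is also free of any scaling of whole samples. Of the 10 pairs of members, all kept 1 order in the 4 samples, miR-30a and miR-30d by only 0.006 cycles in wild-type replicate 1. The genotypes were separated by 0 of the pairs. In 9 of the 10 pairs the value of wild-type replicate 1 lay outside the range of the other 3 samples. The 10 pairs come from only 5 assays, and pairs of other assays were not counted. These counts therefore cannot be read as particular to miR-30, as most wells of wild-type replicate 1 read near whole cycles. Within those 3 samples the spacing of a pair spanned between 0.096 and 0.40 cycles.

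The mean spacing of neighbours in the order was larger than its SD over the 4 samples. miR-30b followed miR-30c by 0.65 ± 0.24 cycles, and miR-30e followed miR-30b by 0.68 ± 0.21 cycles (SD over 4 samples). miR-30a followed miR-30e, its near-identical relative, by 1.40 ± 0.27 cycles. miR-30d followed miR-30a by 0.64 ± 0.45 cycles, ranging from 0.006 in wild-type replicate 1 to 0.96 in wild-type replicate 2. In wild-type replicate 1 both wells of this last pair read near the same whole cycle, and in the other 3 samples they were 0.65 to 0.96 cycles apart.

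Assays that read products of neighbouring hairpins differed in Ct. The miR-30c assay reads both Mir30c-1 and Mir30c-2, so its pairs below do not compare neighbouring hairpins alone. miR-30d came up after miR-30b by 2.01 cycles in wild-type replicate 1, 3.03 in replicate 2, and 2.89 and 2.95 in the knockout replicates. miR-30e followed miR-30c by 2.00, 1.06, 1.04 and 1.23 cycles in the same order of samples, and miR-30a followed miR-30c by 3.01, 2.55, 2.48 and 2.88. In each of these 3 pairs the values of the genotypes overlapped.

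The largest difference of spacing between genotypes was that of miR-30d and miR-30e. The lag of miR-30d behind miR-30e was 1.74 ± 1.02 cycles in wild-type and 2.34 ± 0.064 in knockout embryos (SD, n = 2 each). It was 1.02 cycles in wild-type replicate 1 and 2.45 in replicate 2, on either side of both knockout values.

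**Figure D3:**
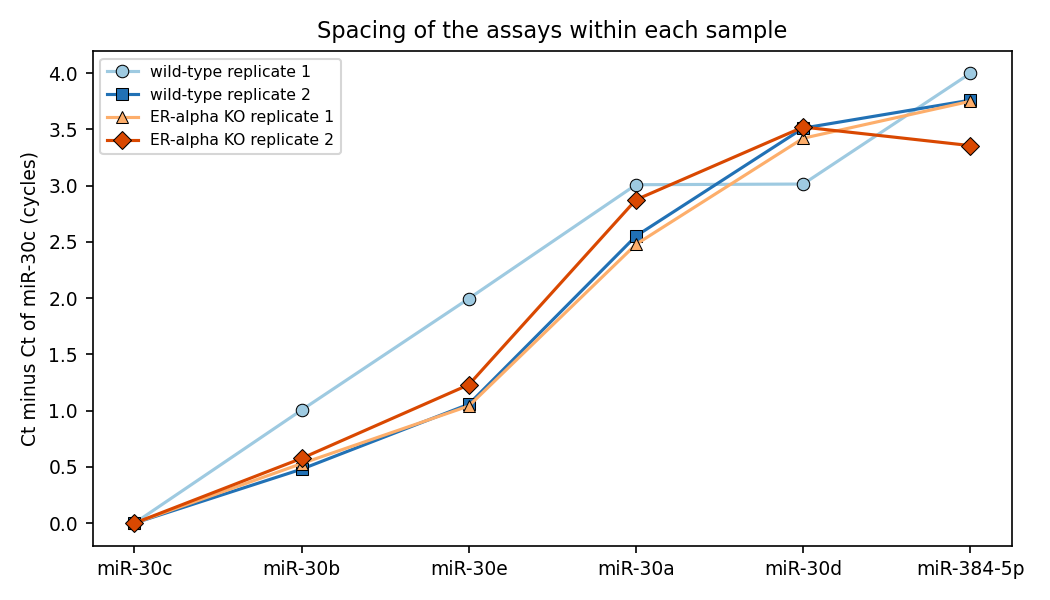
The vertical axis gives each assay's Ct minus that of miR-30c in the same sample, in cycles, and lines join the assays of a sample. Wild-type replicate 2 and both knockout samples run close together over the 5 members, while wild-type replicate 1 steps in near whole cycles (1.01, 2.00, 3.01 and 3.02).

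Levels of the 5 members were then compared between the genotypes. On this scale all 5 means were higher in knockout embryos, by 1.20-fold for miR-30d to 1.81-fold for miR-30e, although miR-30d, and with quantile normalization miR-30c, turned to the other side of 0 on other scales. None of these differences passed the test. By limma, fitted over the 229 microRNAs, 0 of 5 members passed an adjusted p of 0.05, against 0% of all microRNAs tested, and at an unadjusted p of 0.05 the count was 0 of 5 members, against 4.37% of all. The log2 fold change was 0.47 for miR-30c, 0.66 for miR-30b, 0.86 for miR-30e, 0.57 for miR-30a and 0.26 for miR-30d. Each had a standard error of 0.64, because limma found 1 variance for all assays, and each had a limma adjusted p of 0.939. The 95% interval of the member with the largest difference, miR-30e, ran from -0.39 to 2.11, so these data do not show that the genotypes are alike either. The 5 fold changes spanned 0.60 log2 units, less than 1 standard error of a single assay.

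Most assays were also higher in knockout embryos on this scale. A fold change above 0 was found for 5 of 5 members and for 68.1% of all tested microRNAs, and the median was 0.57 for the members and 0.26 for all. Both knockout samples lay above both wild-type samples for 3 of 5 members (miR-30b, miR-30c and miR-30e), against 33.2% of all microRNAs, and below them for 0 of 5, against 6.11%. With 2 samples a group, an exact permutation test of a single value cannot go below 0.333.

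With wild-type replicate 1 left out, little of these differences remained. The log2 fold change was then -0.077 for miR-30a, -0.025 for miR-30b, 0.048 for miR-30c, 0.088 for miR-30d and -0.031 for miR-30e. The median was -0.025 for the members and -0.031 for all tested microRNAs. Without wild-type replicate 2 they ranged from 0.22 for miR-30d to 1.53 for miR-30e, with a median of 1.00, and the smallest limma adjusted p of a member was 0.135. In both of these fits 1 wild-type sample is assumed to vary like the knockout samples. Compared with wild-type replicate 2, the Ct in wild-type replicate 1 was later by 2.99 cycles for miR-30e, 2.57 for miR-30b, 2.50 for miR-30a, 2.05 for miR-30c and 1.55 for miR-30d, where the median of the tested assays was later by 1.84. The part of the near whole-cycle readings in these values was not tested.

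The size also depended on the scale. Set against the mean of the 5 small-RNA controls, the members' log2 fold changes ranged from 0.54 (miR-30d) to 1.14 (miR-30e), while the median of all microRNAs was 0.54. Centred on the average profile of the samples they ranged from -0.051 (miR-30d) to 0.55 (miR-30e), with a median of -0.048 for all. With quantile normalization miR-30c (-0.096) and miR-30d (-0.072) were below 0.

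**Figure D4:**
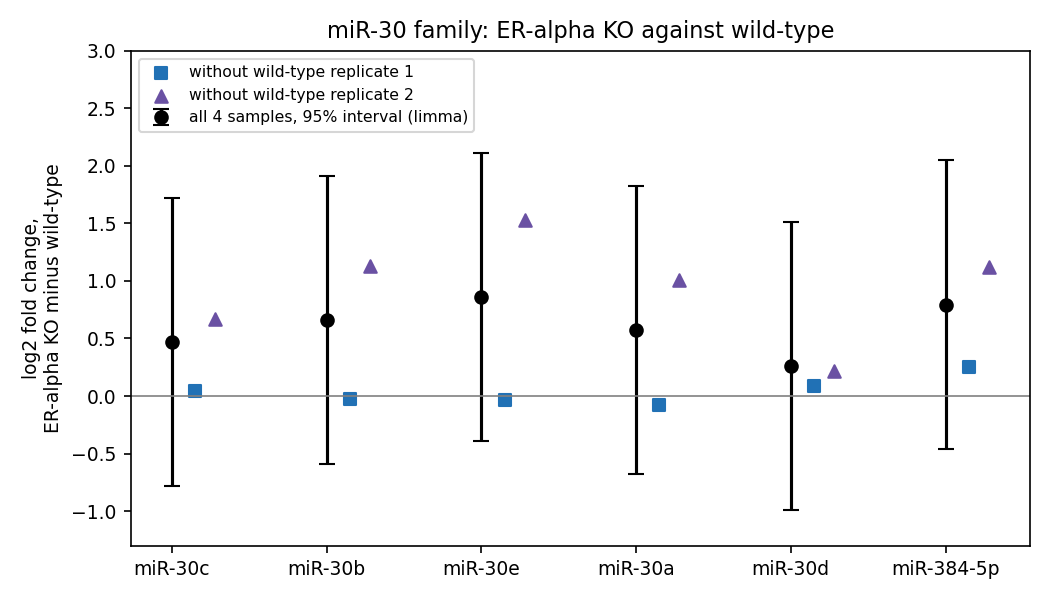
Black points with bars give the log2 fold change of ER-alpha knockout minus wild-type with limma's 95% interval, from all 4 samples; squares and triangles give it without wild-type replicate 1 or 2. Every interval spans 0, and the squares of the 5 members lie between -0.077 and 0.088.

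**Figure D5:**
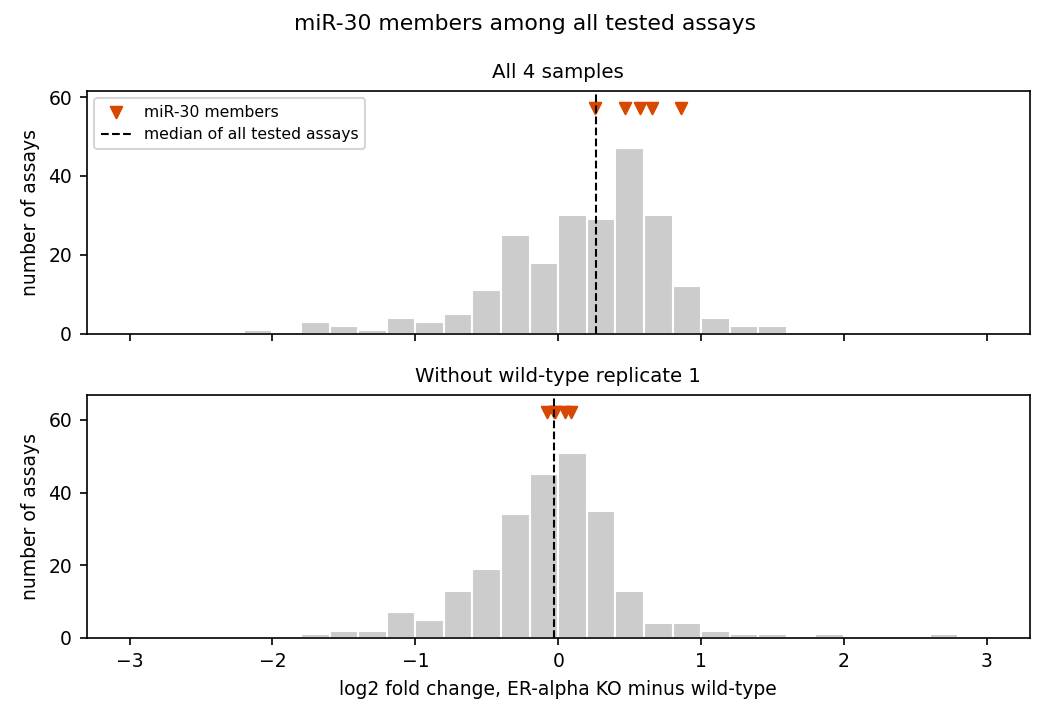
Histograms give the log2 fold change of all tested microRNAs (number of assays on the vertical axis) with the members as triangles and the median as a dashed line, for all 4 samples and without wild-type replicate 1. The members lie at 0.26 to 0.86 in the upper panel, where the median is 0.26, and around the median of -0.031 in the lower one.

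miR-384-5p, a seed relative on the X chromosome known from brain, was read at Ct values of 29.2 and 26.9 in wild-type and 27.3 and 26.7 in knockout embryos. Wild-type levels were 0.0020 and 0.42, knockout levels 0.87 and 1.14, and the groups did not overlap. The log2 fold change was 0.80 (limma adjusted p = 0.939), and it was 0.25 without wild-type replicate 1. It followed miR-30c by 4.0 and 3.76 cycles in the wild-type samples and by 3.75 and 3.36 in the knockout samples. The genotypes were thus apart, but by a margin far smaller than a cycle, as the nearest values were 3.76 and 3.75. In its spacing from miR-30a, miR-30b, miR-30d and miR-30e the genotypes overlapped.

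Other microRNAs reported, like miR-30, to act on matrix and epithelial-mesenchymal transition transcripts (miR-21, miR-29, miR-133 and the miR-200 group with miR-205) were read by 12 assays. Of these, 11 were detected in all samples, the exception being mmu-miR-29b. By limma 0 of 11 passed in either direction, against 0% of all, and their median log2 fold change was 0.26, that of all microRNAs. Without wild-type replicate 1 the median was 0.10 (-0.031 for all), and without wild-type replicate 2 it was 0.18 (0.33 for all). The assays with the largest values were mmu-miR-29c (0.51), of a family that acts on collagen transcripts, the muscle microRNA mmu-miR-133a (0.49) and the epithelial mmu-miR-205 (-0.46). With wild-type replicate 1 left out these were -0.047, 0.60 and -0.097. Among microRNAs of the kidney, a tissue rich in miR-30, 0 of 4 passed, against 0% of all, and the median was 0.44 (0.26 for all). Without wild-type replicate 1 the kidney median was -0.089 (-0.031 for all), and without wild-type replicate 2 it was 0.82 (0.33 for all).

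Other families with 1 seed on the panel are given as a description only, since they differ in their number of assays and in Ct. The 9 let-7 assays (miR-98 included) had log2 fold changes from -0.29 to 1.59 and mean Ct values that spanned 6.08 cycles. The highest fold change was that of mmu-miR-98, read late at a mean Ct of 31.2, and the next was 0.73 (mmu-let-7g). The 2 tested miR-29 assays had 0.23 and 0.51. The 2 miR-181 assays, mmu-miR-181a and mmu-miR-181c, had -1.16 and -1.69 at late mean Ct values of 29.5 and 33.3. The fold changes moved with wild-type replicate 1. Without it the let-7 assays ran from -0.44 to 1.11, and mmu-miR-29a and mmu-miR-29c had 0.21 and -0.047. In the same fit mmu-miR-181a and mmu-miR-181c had -0.79 and -0.70, and the miR-30 members ran from -0.077 to 0.088. Mean Ct values of the 5 miR-30 assays spanned 3.37 cycles, from 23.8 to 27.2. None of the assays of these families passed the limma test, against 0% of all tested microRNAs.

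Profiles over the 4 samples were compared by the Euclidean distance between levels centred on each assay's mean, in log2 units. From the mean profile of the miR-30 members (-0.51 and -0.050 in wild-type, 0.42 and 0.14 in knockout samples), the members themselves lay at 0.21 to 0.63, with miR-30d the farthest. That mean is made from the members, so their distances are shortened by construction. The median distance of the 224 other tested assays was 0.81. The nearest of the 224 other tested assays were mmu-miR-20b at 0.044, mmu-miR-126-5p at 0.10, mmu-miR-708 at 0.11, mmu-miR-223 at 0.13 and mmu-miR-411 at 0.14. As the mean profile is low in wild-type replicate 1, so are these assays, and 91 of the 224 lay closer to it than miR-30d.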

How the data were processed

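Total RNA isolated with TRIzol was read by TaqMan real-time PCR on an Applied Biosystems 7900HT over 40 cycles, per the labels. The deposited values are Ct values, per the file headers. The labels and headers state no threshold, baseline or earlier normalization. Values above cycle 40 in wild-type replicate 1 were taken as not amplified. The 4 U6 wells were averaged. Samples were grouped by title, 2 per genotype.

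MicroRNAs with a Ct of 35 or lower in all samples were tested; each sample was centred on their median Ct, and a level is minus the centred Ct. The genotypes' difference was fitted in R 4.3.3 with limma 3.58.1 (lmFit, eBayes, two-sided), with Benjamini-Hochberg adjustment over 229 assays. The fit was tested on simulated data. Named assays are the 5 members, seed relatives, controls, the 5 assays with the closest profile and up to 3 per list with the largest absolute fold change. Members, lists and alternatives were chosen with earlier results of these data known. Alternatives were other scalings, detection limits, variance models, the replicate number as a block and each sample left out. Python 3.11.15 with pandas 2.3.3 read the files, and matplotlib 3.10.9 drew the plots. Sequences are RefSeq's (GRCm38.p6), matched by name.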

Additional observations from a re-analysis of the deposited data

How the results depend on the processing

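Only 2 samples per genotype and 1 well per assay limit the precision. The count of assays past an adjusted p of 0.05 was 0 in the 14 alternative fits except with the replicate number as a replicate block, which called 1 assay, mmu-miR-324-3p (adjusted p = 0.00578 by limma), and no member. The deviations of same-numbered samples correlated over assays (r = 0.37), but the labels do not say what a number marks, so samples were not treated as pairs. The members' median log2 fold change was 0.57, and from -0.025 to 1.00 with 1 sample left out. Of 70 member values under alternatives, 63 kept their direction and 7 changed sign, none past the threshold: miR-30d with average-profile centring (-0.051), a Ct limit of 32 (-0.037) and quantile normalization (-0.072), miR-30c with quantile normalization (-0.096), and miR-30a, miR-30b and miR-30e without wild-type replicate 1. The replicate block and the other variance models leave each fold change as it was. Their values are counted among the 63 although they could not change sign. With 1 sample left out the range was -0.077 to 1.00 for miR-30a, -0.025 to 1.13 for miR-30b and -0.031 to 1.53 for miR-30e.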

Other observations

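Scaled to a single small-RNA control, the members' median log2 fold change (ER-alpha knockout minus wild-type) was 0.63 with MammU6, 1.00 with U87, 1.45 with Y1, 0.59 with snoRNA135 and 0.59 with snoRNA202. The constant of 0.273 cycles in wild-type replicate 1, which its U6 wells do not share, was not taken off here. It therefore enters the value with MammU6, which is not fully comparable with the others. Without wild-type replicate 1 the values were -0.49, -0.97, 0.46, 0.047 and 0.29 in the same order of controls. U87, a small nucleolar RNA, varied within each genotype, with a Ct of 26.3 and 27.8 in wild-type and of 26.1 and 28.3 in knockout samples. These are values only, and no test was made.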
